A study of Mus musculus with 12 samples.

Results

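The FOXA genes encode 3 forkhead transcription factors, Foxa1, Foxa2 and Foxa3, and were followed across mouse embryonic stem cells and the endoderm and mesoderm cells made from them. They were chosen by gene symbol and are 3 of the 54446 genes in the table of TPM values, a transcript abundance scaled by length and library total, that the authors deposited, 1 row each. E14 is an established mouse embryonic stem cell line, and poly(A) RNA was sequenced from 12 libraries, 3 in each of 4 groups. SOX17+, SOX17+/T+ and T+ cells were differentiated from E14 cells and sorted on reporters for SOX17, an endoderm factor, and for the streak and nascent mesoderm factor T, also called Brachyury. The mESC group was undifferentiated and, per the labels, was kept in serum and LIF on irradiated embryonic fibroblasts as feeders, and no sort is stated for it. The length of differentiation, the reporter construct and the number of clones are not given in the labels, and neither is whether replicates were grown as separate cultures. The p-values thus set group differences only against the spread of these particular libraries, which may be technical. Since TPM is per length, levels of different genes can be set side by side, but the depth behind a value is unknown.

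FOXA proteins bind forkhead motifs in closed chromatin and open it for other factors, and are therefore called pioneer factors. In the mouse embryo Foxa2 is needed for the node, the notochord and the definitive endoderm, and Foxa1 and Foxa2 together are needed to specify the liver. In the gastrulating mouse embryo Foxa2 appears first, Foxa1 later and Foxa3 last, the last mainly in the gut and liver.

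Foxa1 (ENSMUSG00000035451.7) lies on chromosome 12 at 57540628 to 57546916, Foxa2 (ENSMUSG00000037025.11) on chromosome 2 at 148042877 to 148046969 and Foxa3 (ENSMUSG00000040891.6) on chromosome 7 at 19013284 to 19023538, all on the minus strand of GRCm38. The 250 bases upstream of each RefSeq start are shown because 3 unlinked genes with partly shared expression can be compared there letter by letter. They are from RefSeq on GRCm38.p6, minus strand, written 5′ to 3′ in the direction of transcription, with motif matches in capitals. The windows are chr12:57546112-57546361 for Foxa1, which lies inside the span of the gene as the table gives it, chr2:148046970-148047219 for Foxa2, upstream of the farthest of 3 listed starts, and chr7:19023540-19023789 for Foxa3.
Foxa1 promoter: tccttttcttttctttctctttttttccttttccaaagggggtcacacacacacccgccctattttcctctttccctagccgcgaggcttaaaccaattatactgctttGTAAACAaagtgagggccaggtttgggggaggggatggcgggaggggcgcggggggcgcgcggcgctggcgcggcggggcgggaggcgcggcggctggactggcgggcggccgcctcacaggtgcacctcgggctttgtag
Foxa2 promoter: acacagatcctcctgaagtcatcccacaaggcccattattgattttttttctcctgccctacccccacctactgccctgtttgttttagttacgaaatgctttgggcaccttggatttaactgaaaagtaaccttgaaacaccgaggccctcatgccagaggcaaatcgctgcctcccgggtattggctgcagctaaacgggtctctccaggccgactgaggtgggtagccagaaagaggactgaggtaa
Foxa3 promoter: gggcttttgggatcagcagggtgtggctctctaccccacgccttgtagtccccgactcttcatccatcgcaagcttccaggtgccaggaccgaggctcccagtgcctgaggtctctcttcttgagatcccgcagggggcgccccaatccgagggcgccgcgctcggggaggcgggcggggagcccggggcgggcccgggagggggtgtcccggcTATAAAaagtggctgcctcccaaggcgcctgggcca
A forkhead motif with the letters TGTTTAC and a T-box motif with the letters AGGTGTGA were searched on both strands. The motif searched for GATA factors was AGATAA, also on both strands. That for SOX factors was AACAAT, likewise on both strands. For the core promoter, the letters TATAAA were searched on the strand of the gene alone. Foxa1 held GTAAACA, the reverse complement of the forkhead letters, 141 to 135 bases upstream of the start, and 3.06% of 27025 such windows over all genes hold a forkhead match. Foxa3 held TATAAA 36 to 31 bases upstream, as 8.13% of windows do. Foxa2 held none of these letters in this window. The windows of Foxa1 and Foxa3 were 62.0% and 68.8% G or C with 21 and 18 CpG, while that of Foxa2 was 50.8% G or C with 6 CpG, and the median window was 52.0% G or C with 6 CpG. A match is a description of the letters and not a binding site.

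The reporter genes followed the sort labels. Sox17 was at 243, 211 and 235 TPM in SOX17+, 148, 146 and 123 in SOX17+/T+, 7.96, 9.99 and 12.9 in T+ and at most 0.798 in mESC, and T was at 2.27, 1.86 and 2.84 TPM in SOX17+, 40.4, 31.7 and 61.5 in SOX17+/T+, 132, 92.1 and 158 in T+ and at most 0.673 in mESC. The summed level of 7 fibroblast genes was 50.7 to 57.2 TPM in SOX17+, 49.2 to 60.1 in SOX17+/T+, 71.9 to 85.2 in T+ and 2340.9 to 2948.4 in mESC. The part of feeder RNA in the differences from mESC was not tested.

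Foxa2 was the most abundant FOXA transcript in every sorted library. It was at 83.2, 76.9 and 90.5 TPM in SOX17+, 58.2, 49.2 and 71.9 in SOX17+/T+, 23.0, 19.3 and 36.2 in T+ and 1.07, 0.586 and 1.25 in mESC. No ranges of any 2 groups overlapped, and the order was SOX17+, SOX17+/T+, T+ and mESC. How many of all genes have ranges apart was not counted, so this and later statements on ranges only describe the values. In bulk RNA, fewer cells of a type and less RNA per cell cannot be told apart.

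Foxa1 had the same order with a wider spread between sorted groups. It was at 44.7, 38.1 and 44.0 TPM in SOX17+, 15.6, 13.5 and 17.0 in SOX17+/T+, 1.6, 1.43 and 3.52 in T+ and 1.07, 0.829 and 0.875 in mESC. Again no ranges overlapped, but T+ replicate 3 stood above the other T+ libraries, which were close to mESC.

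Foxa3 was the least abundant of the 3 genes in each sorted group. It was at 25.9, 26.4 and 23.9 TPM in SOX17+, 10.8, 9.75 and 8.15 in SOX17+/T+, 0.832, 1.04 and 0.956 in T+ and 0.317, 0.875 and 0.525 in mESC. Its T+ and mESC ranges overlapped, and all its other ranges were apart. Among the 16097 tested genes, those with at least 1 TPM in at least 3 libraries, Foxa2 stood above 89.2% by mean level in SOX17+, 85.3% in SOX17+/T+, 68.8% in T+ and 7.63% in mESC. Foxa1 stood above 79.1% of genes in SOX17+, 57.0% in SOX17+/T+, 22.8% in T+ and 7.31% in mESC, and Foxa3 above 68.4% in SOX17+, 46.6% in SOX17+/T+, 12.3% in T+ and 4.72% in mESC.

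**Figure D1:**
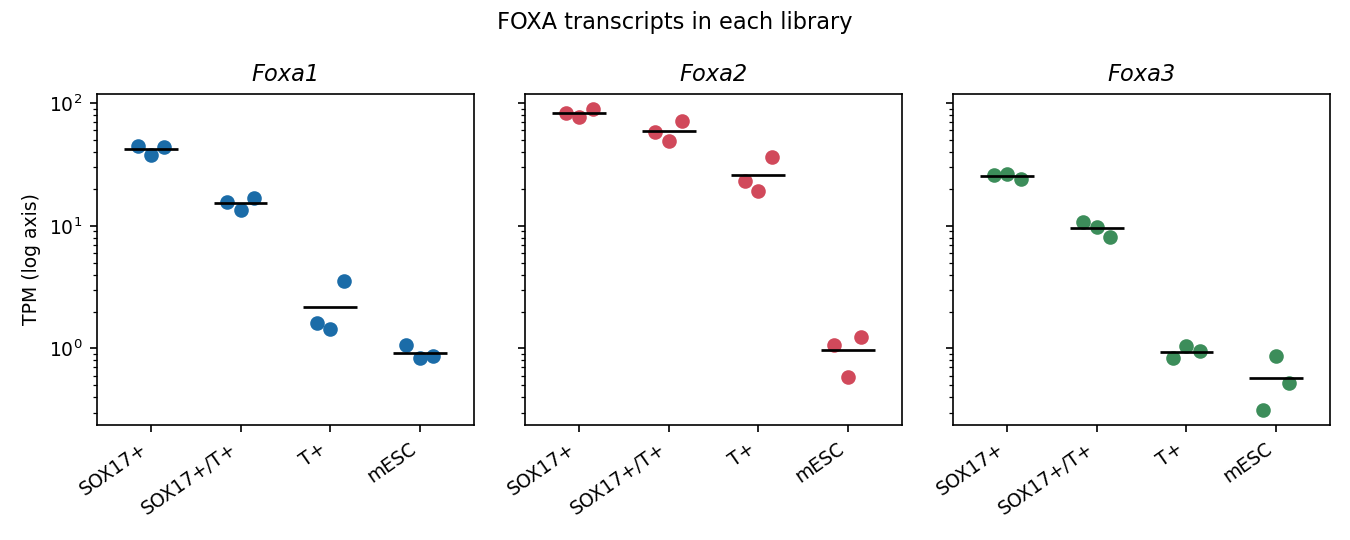
TPM of each FOXA gene on a log axis in the 12 libraries, with 1 point per library and a bar at each group mean. In T+ the points of Foxa2 lie between 19.3 and 36.2 TPM, while those of Foxa1 and Foxa3 stay at or below 3.52 TPM.

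Set against mESC, the 3 FOXA genes rose in all 3 sorted groups, but in T+ almost the whole rise was in Foxa2. Differences are of log2(TPM + 1) ± the standard error of a limma fit over all 12 libraries, with p-values adjusted over all tested genes and calls at an adjusted p under 0.05. In SOX17+ all 3 were called higher, as were 35.4% of all tested genes, with 4.49 ± 0.19 for Foxa1 (limma adjusted p = 3.3e-10), 5.44 ± 0.22 for Foxa2 (1.3e-09) and 4.08 ± 0.12 for Foxa3 (2.1e-12). In SOX17+/T+ all 3 were called higher, against 34.9% of all genes, with 3.08 ± 0.19 for Foxa1, 4.95 ± 0.22 for Foxa2 and 2.76 ± 0.12 for Foxa3 (limma adjusted p at most 1.3e-08).

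In T+ all 3 were again called higher than in mESC, against 34.5% of all genes, but the sizes were unlike. Foxa2 rose by 3.76 ± 0.22 (limma adjusted p = 3.3e-08), the 76th most positive difference. Foxa1 rose by 0.67 ± 0.19 (limma adjusted p = 0.0062), and without T+ replicate 3 by 0.39. The Foxa3 difference was 0.32 ± 0.12 (limma adjusted p = 0.027) and the call was lost, at 0.20 to 0.31, without T+ replicate 2, T+ replicate 3, mESC replicate 1 or mESC replicate 3, and also at 0.32 with no filter on low values. The scale understates changes near 1 TPM, and with a pseudocount of 0.1 the difference was 1.05 for Foxa1 and 0.72 for Foxa3.

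Between the sorted populations, Foxa1 and Foxa3 separated endoderm from T+ cells far more than Foxa2 did. SOX17+ exceeded T+ by 3.82 ± 0.19 for Foxa1 (limma adjusted p = 9.2e-09), 3.76 ± 0.12 for Foxa3 (5.0e-11) and 1.68 ± 0.22 for Foxa2 (8.6e-05), 3 calls of 3 where 25.4% of all genes were called higher. Ordered from the most positive difference of the 16097 genes down, these stood 20th, 24th and 345th. SOX17+/T+ exceeded T+ by 2.41 ± 0.19 for Foxa1 (limma adjusted p = 2.5e-06), 2.44 ± 0.12 for Foxa3 (1.9e-08) and 1.19 ± 0.22 for Foxa2 (0.0025), 3 calls of 3 against 12.6% of genes.

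SOX17+ cells had more Foxa1 and Foxa3 than double-positive cells. The difference was 1.41 ± 0.19 for Foxa1 (limma adjusted p = 1.3e-04) and 1.33 ± 0.12 for Foxa3 (3.0e-06), 2 calls of 3 against 19.8% of genes called higher. Foxa2 was not called, at 0.49 ± 0.22 (95% interval 0.00 to 0.98, limma adjusted p = 0.11), although its lowest SOX17+ value of 76.9 TPM was above its highest SOX17+/T+ value of 71.9 TPM. With a term for replicate number in the fit, Foxa2 was called (limma adjusted p = 0.0034).

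**Figure D2:**
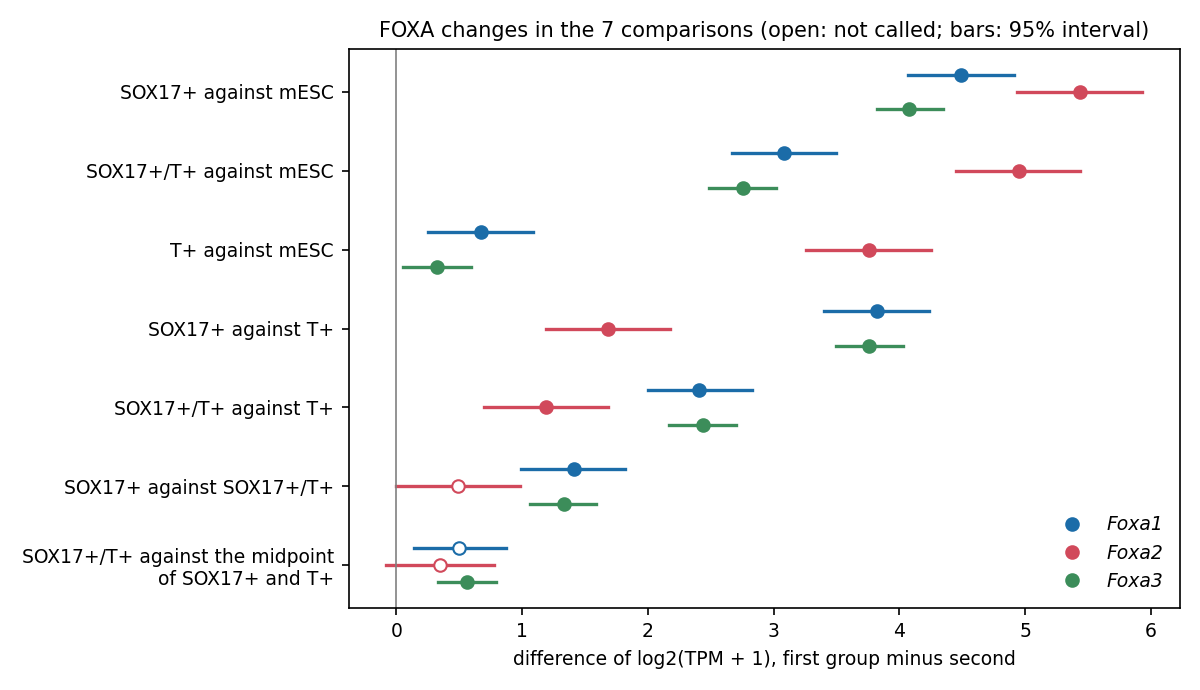
Differences of log2(TPM + 1) for each FOXA gene in the 7 comparisons, with 95% intervals, filled points for called differences and open points for those not called. Foxa2 leads in the comparisons with mESC, and Foxa1 and Foxa3 lead in those between sorted groups.

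The double-positive cells lay between the single-positive groups, and which group they stood nearer to depended on the scale. On a log2(TPM + 1) line with the T+ mean at 0 and the SOX17+ mean at 1, the SOX17+/T+ libraries stood at 0.632 ± 0.0415 for Foxa1, 0.708 ± 0.161 for Foxa2 and 0.648 ± 0.0499 for Foxa3 (SD, n = 3). In TPM, Foxa1 averaged 15.4 in SOX17+/T+, against 42.3 in SOX17+ and 2.18 in T+, and Foxa3 averaged 9.58 in SOX17+/T+, against 25.4 in SOX17+ and 0.944 in T+, so both were nearer to T+ on the linear scale. Foxa2 averaged 59.8 TPM in SOX17+/T+, against 83.5 in SOX17+ and 26.2 in T+, nearer to SOX17+ on both scales. Against the midpoint of both groups on the log2 scale, Foxa3 was higher by 0.56 ± 0.11 (limma adjusted p = 0.006), 1 call of 3 where 4.43% of genes were called higher. Foxa1 was not called, at 0.50 ± 0.17 (95% interval 0.14 to 0.87, limma adjusted p = 0.082), and was called at 0.65 without T+ replicate 3. Foxa2 was not called either, at 0.35 ± 0.19 (95% interval -0.08 to 0.78, limma adjusted p = 0.31). With a term for replicate number in the fit, both Foxa1 and Foxa2 were called against the midpoint (limma adjusted p = 0.037 and 0.03).

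The make-up of the FOXA transcripts differed between sorted groups. Foxa2 made 55.2 ± 1.65% of the summed FOXA TPM in SOX17+, 70.2 ± 3.36% in SOX17+/T+ and 89.4 ± 0.955% in T+ (SD, n = 3 each). Foxa1 made 27.9 ± 1.05% in SOX17+, 18.2 ± 0.605% in SOX17+/T+ and 7.16 ± 1.29% in T+, and Foxa3 16.9 ± 1.78% in SOX17+, 11.6 ± 2.76% in SOX17+/T+ and 3.47 ± 1.23% in T+. The sum itself was 151 ± 8.81 TPM in SOX17+, 84.7 ± 12.3 in SOX17+/T+, 29.3 ± 10.0 in T+ and 2.46 ± 0.178 in mESC, where the shares rest on values near 1 TPM.

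**Figure D3:**
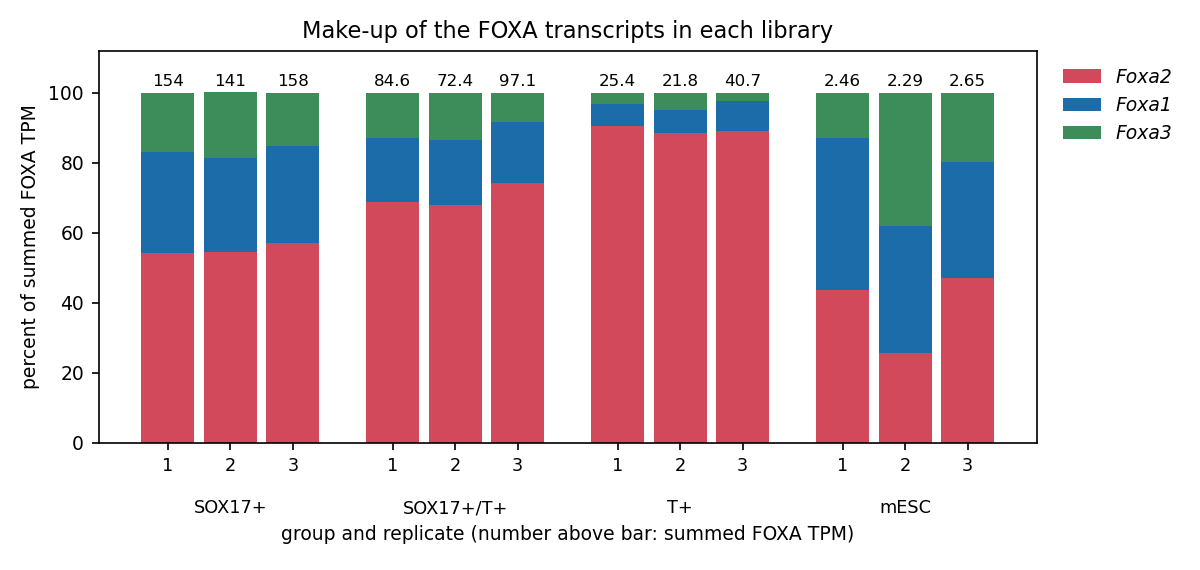
Percent of the summed FOXA TPM held by each gene in every library, with the sum in TPM above each bar. Foxa2 fills about the same share of the 3 bars of a sorted group, 89.4% on average in T+ and 55.2% in SOX17+.

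The log2 ratio of Foxa1 to Foxa2, both as TPM + 1, was -0.88, -0.99 and -1.02 in SOX17+, -1.83, -1.79 and -2.02 in SOX17+/T+ and -3.21, -3.06 and -3.04 in T+. The ratio of Foxa3 to Foxa2 was -1.65, -1.51 and -1.87 in SOX17+, -2.32, -2.22 and -2.99 in SOX17+/T+ and -3.71, -3.31 and -4.25 in T+. For both ratios the 3 groups were apart. An exact permutation test over the 9 sorted libraries gave p = 0.00357 for each, the smallest that 1680 arrangements allow (0.00536 adjusted over the 3 pairs). The permutation moved libraries freely, without regard to replicate number, and no form of it within replicate numbers was run. The ratio of Foxa1 to Foxa3 was 0.71 ± 0.18 in SOX17+, 0.63 ± 0.30 in SOX17+/T+ and 0.65 ± 0.50 in T+ (SD, n = 3 each, exact permutation p = 0.964). Single libraries lay between 0.25 and 1.21, and the p does not show that this ratio is constant.

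Within groups, Foxa2 and Foxa3 did not move together. Replicate 3 had the highest Foxa2 of its group in all 4 groups, while it had the lowest Foxa3 in SOX17+ and SOX17+/T+. Shh, a secreted signal of node and notochord, was at 33.5 TPM in T+ replicate 3 against 14.1 and 13.7 in the other T+ libraries, and at 25.7 in SOX17+/T+ replicate 3 against 13.6 and 13.0. T was also highest in these replicates, at 158 TPM in T+ and 61.5 TPM in SOX17+/T+. The part of these cells in the Foxa2 levels was not tested.

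Within 100 kb of the FOXA genes the table lists 7 genes near Foxa1, 3 near Foxa2 and 16 near Foxa3, and none overlaps a FOXA gene. Next to Foxa2, 2.67 kb beyond its 3′ end on the same strand, lies 9030622O22Rik, a long noncoding RNA in GENCODE M21. It was at 13.7, 15.9 and 17.4 TPM in SOX17+, 9.54, 4.49 and 14.4 in SOX17+/T+, 3.68, 3.33 and 5.29 in T+ and listed at 0 in all mESC libraries, the same order of groups as Foxa2. SOX17+ exceeded T+ by 1.72 ± 0.30 (limma adjusted p = 6.0e-04). SOX17+/T+ exceeded T+ by 0.94 ± 0.30 (limma adjusted p = 0.04), a call lost under 6 alternatives (0.075 to 0.12), and the difference was 0.60 without SOX17+/T+ replicate 3. SOX17+ against SOX17+/T+ was not called (0.79 ± 0.30, limma adjusted p = 0.064), and was called at 1.13 without SOX17+/T+ replicate 3.

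Of the 7 neighbours of Foxa1, 2 passed the filter. Mipol1, 43.4 kb away, averaged 18.8 TPM in SOX17+, 18.7 in SOX17+/T+, 16.1 in T+ and 8.85 in mESC, a narrower range than that of Foxa1. The other, Ttc6, which encodes a tetratricopeptide repeat protein, starts 17.2 kb away on the opposite strand. It averaged 1.45 TPM in SOX17+, 0.565 in SOX17+/T+, 0.103 in T+ and 0.0269 in mESC. Ttc6 reached 1 TPM in SOX17+ alone, so its direction follows from the filter and no test of it is given. Head to head with Foxa3, 0.839 kb away, lies Sympk, which encodes an mRNA 3′ end processing scaffold. Sympk averaged 81.9 TPM in SOX17+, 75.6 in SOX17+/T+, 78.6 in T+ and 55.3 in mESC, and so did not share the wide range of Foxa3.

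The genes with profiles nearest to each FOXA gene were ranked by the root mean square difference of log2(TPM + 1) after each gene's own mean was removed. Over the 9 sorted libraries the nearest to Foxa1 were Emb (0.21), Cldn7 (0.25), Pcbd1 (0.25), Cyp1a1 (0.26) and Crb3 (0.26), and the nearest to Foxa3 were Cldn7 (0.13), Cyp1a1 (0.14), Pcbd1 (0.15), Crb3 (0.15) and Emb (0.18). The same 5 genes led both lists. Cldn7 is a tight junction claudin, Crb3 an apical polarity protein, Cyp1a1 a cytochrome P450 and Pcbd1 an enzyme of pterin recycling. The nearest to Foxa2 were Slain1 (0.15), Stk26 (0.18), Lgr5 (0.19), Atp8a1 (0.19) and Stx7 (0.21). Foxa1 and Foxa2 differed by 0.88, which placed Foxa2 237th among the genes nearest to Foxa1 and Foxa1 10734th among those nearest to Foxa2. This measure weighs the size of changes, so a gene that hardly changes can rank nearer to Foxa2 than Foxa1 does. The rank does not speak to the order of groups, which Foxa1 and Foxa2 shared. Over all 12 libraries Foxa1 and Foxa2 differed by 1.15, with Foxa2 252nd from Foxa1 and Foxa1 181st from Foxa2. Over all 12 libraries, where the mESC level weighs in, Foxa2 lay nearest to Amot (0.26) and the simple keratin genes Krt8 (0.29) and Krt18 (0.33).

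Of 17 textbook genes that depend on FOXA factors in liver, lung or gut, 7 passed the filter on low values. Of these 7, Apoa1, Apob and Igfbp1 reached 1 TPM in SOX17+ alone, so their direction follows from the filter and no count or median of the list is given. Ttr, a thyroid hormone carrier of liver and visceral endoderm, was at 65.8, 82.3 and 72.4 TPM in SOX17+, 4.89, 4.91 and 4.26 in SOX17+/T+, 0.735, 1.06 and 1.86 in T+ and at most 0.128 in mESC. Ttr had the FOXA order of groups, with no overlap between any 2 of them.

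Hnf4a, a nuclear receptor of liver and visceral endoderm, was at 28.2, 29.4 and 30.8 TPM in SOX17+, 5.83, 5.68 and 4.94 in SOX17+/T+, 0.395, 0.644 and 0.627 in T+ and 1.25, 1.39 and 1.27 in mESC. Nkx2-1, a homeodomain factor of lung and thyroid, was at 14.3, 15.1 and 13.8 TPM in SOX17+, 1.85, 1.63 and 1.05 in SOX17+/T+, 0.15, 0.212 and 0.155 in T+ and at most 0.018 in mESC. SOX17+ exceeded T+ by 5.09 ± 0.15 for Ttr, 4.29 ± 0.08 for Hnf4a and 3.71 ± 0.10 for Nkx2-1 (limma adjusted p at most 2.5e-11). Shh, on the same list, went the other way, with means of 7.24 TPM in SOX17+, 17.4 in SOX17+/T+ and 20.4 in T+. SOX17+/T+ exceeded T+ by 2.06 ± 0.08 for Hnf4a, 1.39 ± 0.15 for Ttr and 1.09 ± 0.10 for Nkx2-1 (limma adjusted p at most 1.6e-05).

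SOX17+ exceeded SOX17+/T+ by 2.23 ± 0.08 for Hnf4a, 3.71 ± 0.15 for Ttr and 2.63 ± 0.10 for Nkx2-1 (limma adjusted p at most 3.9e-09). On this log2(TPM + 1) scale, SOX17+/T+ cells stood nearer to T+ than to SOX17+ by their means for Ttr and Nkx2-1. For Hnf4a they stood close to the midpoint of both groups. The means of the FOXA genes stood nearer to SOX17+, though Foxa1 and Foxa2 were not called against the midpoint without a replicate term. The liver genes Alb, Tat and G6pc and the airway gene Scgb1a1 were among the 10 untested members, and no library listed any of the 4 above 0.126 TPM.

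Most tested markers of extraembryonic endoderm, which also uses Foxa2 and Hnf4a, were higher in SOX17+ than in T+. Of the 9 tested of 10, 8 rose and 0 fell in SOX17+ against T+, where 25.4% of all genes rose and 29.0% fell. Apoa1 passed the filter through SOX17+ alone, which fixes its rise there and against mESC. Against mESC, 6 rose and 2 fell in SOX17+ (35.4% and 50.0% of all genes). In SOX17+/T+, 4 rose and 4 fell against mESC (34.9% and 50.3%), and in T+ 2 rose and 5 fell (34.5% and 49.5%). Lrp2 passed the filter through mESC alone, which fixes its fall against mESC. Of the list, 4 of the 10 (Ttr, Afp, Apoa1 and Hnf4a) are also on the FOXA-dependent list. The summed level of all 10 markers was 207 to 216 TPM in SOX17+, 59.0 to 63.2 in SOX17+/T+, 41.8 to 51.2 in T+ and 38.5 to 43.6 in mESC. Afp, a defining marker, was at 0.367, 0.343 and 0.592 TPM in SOX17+ and listed at 0 in all T+ libraries, and Pth1r, at 80.8 to 83.1 TPM in SOX17+, gave much of the sum. Sox7 was higher in SOX17+ than in T+ by 1.78 ± 0.11 and Amn by 1.72 ± 0.09 (limma adjusted p at most 1.4e-08). The part of such cells in the FOXA levels was not tested. Of 10 definitive endoderm genes, among them Sox17, 8 rose and 1, Cxcr4, fell in SOX17+ against T+, beside the same shares of all genes. The summed level of these 10 was 2517.6 to 2689.0 TPM in SOX17+ and 574 to 688 in T+. Krt18, Krt8 and Cldn6 gave much of it, averaging 823, 662 and 445 TPM in SOX17+ and 185, 180 and 54.5 in T+.

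**Figure D4:**
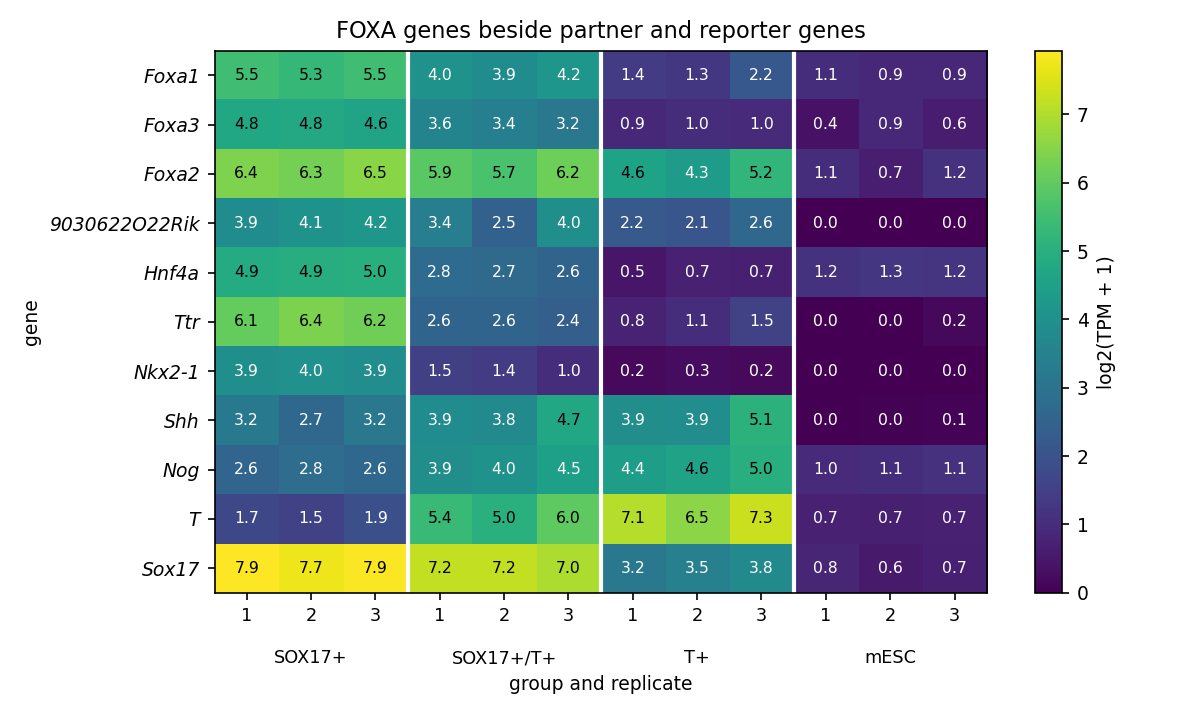
log2(TPM + 1) of the FOXA genes, the Foxa2 neighbour 9030622O22Rik, FOXA-dependent genes, the node gene Nog and the reporter genes T and Sox17 in the 12 libraries. Hnf4a and Nkx2-1 have low values in T+ like Foxa1 and Foxa3. Shh and Nog are on average highest in T+, whereas Foxa2 is highest in SOX17+.

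Node, notochord and floor plate genes were mostly lower in SOX17+ than in T+, while Foxa2 averaged 83.5 TPM in SOX17+ and 26.2 in T+. The list of 8 includes T, on which cells were sorted. Of the 8, 7 rose and 1 fell in T+ against mESC, where 34.5% of all genes rose and 49.5% fell, and 7 fell and 0 rose in SOX17+ against T+, where 29.0% of all genes fell and 25.4% rose. In SOX17+/T+ against T+, 3 fell, 1, Ntn1, rose and 4 were not called, against 15.8% lower and 12.6% higher over all genes. Their summed level was 24.6 to 34.3 TPM in SOX17+, 86.2 to 151 in SOX17+/T+, 152 to 270 in T+ and 22.2 to 23.6 in mESC, with T the largest part in T+. Nog, a BMP antagonist, was higher in T+ than in mESC by 3.61 ± 0.16 and Shh by 4.26 ± 0.34 (limma adjusted p at most 6.8e-07). Noto, a notochord homeobox gene, was at 6.33, 3.53 and 8.73 TPM in T+ and listed at 0 in all mESC libraries. The part of node or notochord cells in the Foxa2 level of T+ was not tested.

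Most genes of the NODAL pathway, which induces Foxa2 in the mouse streak, were lower in SOX17+ than in T+. The list of 10 held ligand, co-receptor, receptor and SMAD genes and the forkhead gene Foxh1. Of these, 7 fell and 0 rose in SOX17+ against T+, beside 29.0% and 25.4% of all genes. The median was -0.56, against -0.03 over all genes, and Acvr1b, Acvr2a and Smad2 were not called. Foxh1 was among those that fell (-0.72 ± 0.04, limma adjusted p = 8.9e-09). Against mESC, 7 of the 10 rose and 3 fell in SOX17+, against 35.4% and 50.0% of all genes. The 3 that fell were Nodal, Tdgf1 and Smad2. They averaged 84.2, 494 and 58.0 TPM in mESC and 3.5, 1.37 and 41.9 in SOX17+. The summed level of the list was 764 to 813 TPM in mESC and 463 to 498 in SOX17+. Within it, Foxh1 averaged 44.7 TPM in mESC and 123 in SOX17+. The co-receptor gene Tdgf1 was at 1.58, 0.97 and 1.54 TPM in SOX17+ and 28.7, 23.7 and 28.6 in T+, a fall of 3.57 (-3.57 ± 0.17, limma adjusted p = 8.7e-09). The ligand gene Nodal was at 3.8, 2.44 and 4.26 TPM in SOX17+ and 13.8, 11.2 and 13.5 in T+ (-1.64 ± 0.16, limma adjusted p = 3.9e-06). The co-receptor gene Cfc1 differed by -0.93 ± 0.07 and Smad3, which encodes a signal transducer, by -0.91 ± 0.06 (limma adjusted p at most 2.0e-07).

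Of 9 mesendoderm transcription factors, 5 rose and 3 fell in SOX17+ against T+, against 25.4% and 29.0% of all genes. Besides Sox17, on which cells were sorted, Hhex, an anterior endoderm homeobox gene, rose by 1.68 ± 0.13 (limma adjusted p = 2.5e-07). Eomes, a T-box factor upstream of endoderm, was at 11.7, 7.98 and 13.2 TPM in SOX17+, 14.7, 9.51 and 14.9 in SOX17+/T+ and 6.23, 4.0 and 6.05 in T+, and was higher in SOX17+ than in T+ by 0.89 ± 0.21 (limma adjusted p = 0.0039). Mixl1, a homeobox gene of the streak, fell by 1.38 (-1.38 ± 0.18, limma adjusted p = 2.8e-05).

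Among the 41 other forkhead genes, 30 passed the filter, with Foxh1 of the NODAL list among them. In SOX17+ against T+, 6 of the 30 rose and 14 fell, with a median of -0.23, against 25.4% and 29.0% of all genes and a median of -0.03. Foxp2, singled out after its values were seen, had the order of the FOXA genes, at 3.39, 2.53 and 3.3 TPM in SOX17+, 1.95, 1.33 and 1.74 in SOX17+/T+, 0.686, 0.656 and 0.831 in T+ and 0.202, 0.0886 and 0.0965 in mESC. No ranges of Foxp2 overlapped, and SOX17+ exceeded T+ by 1.23 ± 0.11 (limma adjusted p = 4.5e-07). Foxq1, a forkhead gene of epithelia, was at 4.9, 4.93 and 7.31 TPM in SOX17+ and 0.232, 0.209 and 0.277 in T+, a difference of 2.42 ± 0.13 (limma adjusted p = 4.9e-09). The mesoderm gene Foxc1 was at 0.703, 0.701 and 0.936 TPM in SOX17+ and 16.2, 16.0 and 19.4 in T+, a difference of -3.35 ± 0.09 (limma adjusted p = 2.0e-11). Foxb1 differed by -2.78 ± 0.14 and Foxc2 by -2.71 ± 0.23 between these groups (limma adjusted p at most 1.1e-06).

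Against mESC, 14 of the 30 rose and 11 fell in T+, against 34.5% and 49.5% of all genes, and 6 of the 30 passed the filter through mESC alone, which fixes their fall. They include Foxd3. In T+ against mESC, Foxf1, a lateral mesoderm gene, was higher by 4.78 ± 0.09 (limma adjusted p = 1.6e-14). In SOX17+ against mESC, 11 rose and 13 fell, against 35.4% and 50.0% of all genes, and the fall of the same 6 genes is likewise fixed. Foxd3, a factor of pluripotent cells and neural crest, was at 0, 0 and 0.0159 TPM in SOX17+ and 35.4, 34.4 and 30.1 in mESC. In T+ it was at 0.0936, 0.0799 and 0.177 TPM. Its direction follows from the filter and no test of it is given.

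**Figure D5:**
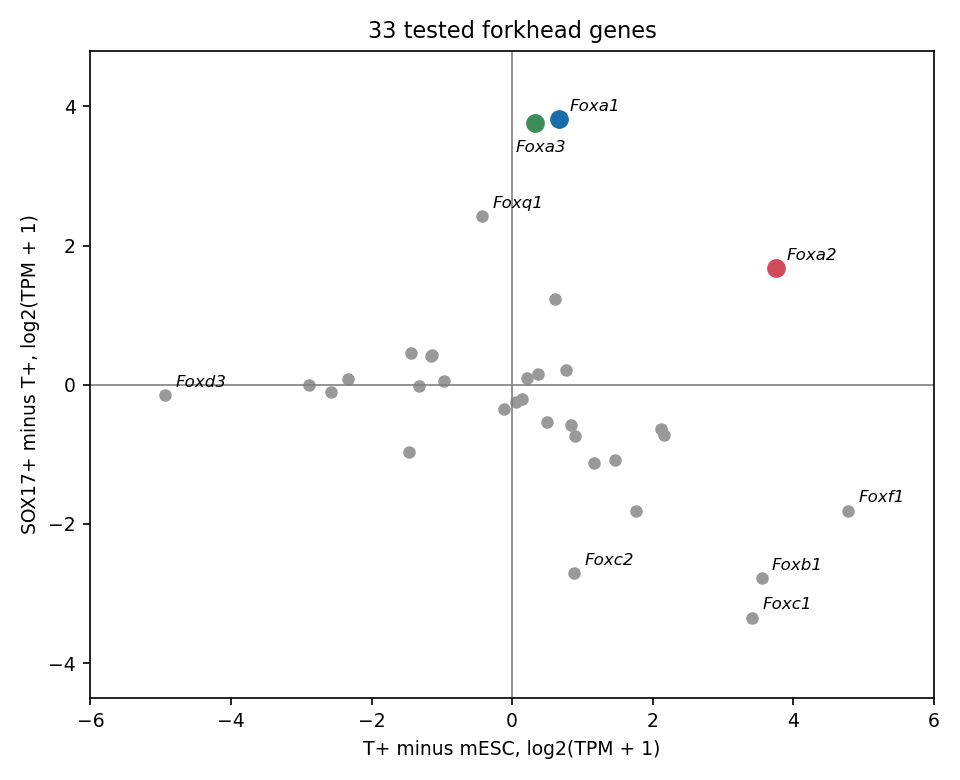
Tested forkhead genes by their difference in T+ against mESC (horizontal) and in SOX17+ against T+ (vertical), both of log2(TPM + 1). Foxa2 lies to the right and above 0 at 3.76 and 1.68, Foxa1 and Foxa3 near the vertical axis at 3.82 and 3.76, and Foxc1 and Foxb1 below 0 on the right.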

How the data were processed

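Poly(A) RNA of 12 libraries was prepared from 500 ng of total RNA with a stranded kit and sequenced as 100 bp pairs, per the labels' protocols. Per the submitters' processing notes, cutadapt, STAR and StringTie were used with mm10 and GRCm38; no version, annotation release or filter is given in the sources used here. The values deposited by the authors are TPM, scaled to 1 common total per library. No counts were used, so the depth is unknown and no count test was run. In the table of 54480 rows, 282 empty cells (0 in FOXA rows) were set to 0 and 11 genes split over rows were summed. Where a whole group is listed at 0, which may be a failed estimate, fold changes are left out.

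Values were taken as log2(TPM + 1). Genes with at least 1 TPM in at least 3 libraries (16097) were fitted with 1 mean per group in limma 3.58.1 (R 4.3.3; trend and robust, 8 residual degrees of freedom), 2-sided, Benjamini-Hochberg adjusted, in 7 comparisons, and the fit was tested on simulated data. The comparisons with mESC share its libraries, and those with T+ share the T+ libraries. Ratios between FOXA genes were tested by exact permutation of the F statistic. The members and gene lists were chosen with earlier results of these data known. Some genes of the FOXA-dependent list are not reported here. Named genes are up to 4 called members of a list with the largest absolute change, up to 2 abundant markers of other cell types, the reporters, the 5 nearest profiles, and neighbours within 100 kb. Members named beyond that (Afp, Lrp2, Ntn1, Foxp2, Foxh1, Apob, Igfbp1, Alb, Tat, G6pc, Scgb1a1, Cxcr4, and Shh among the FOXA-dependent genes) were chosen after their values were seen. Alternatives were a pseudocount of 0.1, no filter, median-of-ratios and quantile scaling, a replicate block, only the 9 sorted libraries, and leaving out each library. After group means were removed, same-numbered T+ and SOX17+/T+ libraries correlated at 0.204, 0.149 and 0.242 across genes, so the numbers pair these groups; no FOXA call between them changed under the block.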

Additional observations from a re-analysis of the deposited data

How the results depend on the processing

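The FOXA differences of SOX17+ and SOX17+/T+ from mESC and from T+ kept their direction and their call under all alternatives run, as did those of Foxa1 and Foxa3 between SOX17+ and SOX17+/T+ and both ratios to Foxa2. The Foxa3 difference of T+ from mESC ranged from 0.20 to 0.45 as single libraries were left out, and was 0.32 and not called with no filter on low values (limma adjusted p = 0.058). Under the replicate block, Foxa2 in SOX17+ against SOX17+/T+ (0.49, limma adjusted p = 0.0034) and, against the midpoint, Foxa1 (0.50, 0.037) and Foxa2 (0.35, 0.03) were called. Same-numbered SOX17+ and SOX17+/T+ libraries correlated at 0.0463, 0.178 and 0.224. SOX17+ replicate 1 correlated better with SOX17+/T+ replicate 2 (0.0849) than with its own number. Whether the numbers pair these groups was not settled. The block moved the count of calls against the midpoint to 2146 from 1589, and changed no other FOXA call. That count was 1056 with no filter and ranged from 832 (without SOX17+/T+ replicate 1) to 1513 as libraries were left out, with 888 without SOX17+/T+ replicate 2. Foxa1 against the midpoint ranged from 0.42 to 0.65 in the same way. The cause of these shifts was not tested. Scaling moved the median of all genes in SOX17+ against mESC from -0.18 to -0.04 (median of ratios) or 0.05 (quantile), and quantile scaling moved the higher share of calls against mESC to 52.4, 53.2 and 53.4% in SOX17+, SOX17+/T+ and T+, against 41.5, 40.9 and 41.0% as deposited, and against the midpoint to 55.9% against 44.9%. No direction of a FOXA gene or named gene reversed. Unknown depth limits values below about 1 TPM, which include Foxa3 in T+ and all 3 genes in mESC.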
